A study of Oryza sativa with 6 samples.

Results

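MADS-box genes encode transcription factors that bind DNA as dimers and higher complexes, and in plants they specify floral meristems, floral organs, ovules and parts of the seed. The family is grouped into clades whose letters come from the floral organ model: A for meristem and outer organ identity, B for lodicules and stamens, C for stamens and floral determinacy, D for ovules, and E for the SEPALLATA-type cofactors that join the others in complexes. In cereals the AGL6-type gene MADS6 acts in both the flower and the endosperm, and the B-sister gene MADS29 acts in the maternal nucellus and its breakdown after fertilisation. The members here are the rice genes that have a single-gene probe set on the array and carry a MADS number as symbol or synonym in the RefSeq gene table. The rule found 31 genes, out of 17905 with a single-gene probe set, and each is represented by the brightest of its probe sets. Of the 31, 4 genes have more than 1 such probe set, and the 31 hold 39 in all. MADS-box genes without such a name or probe set are not covered. Genes are given by their MADS number, followed where first described by the RefSeq symbol. No sequences of these genes were analysed here.

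RNA from caryopses (the developing grains of rice) collected 7 days after flowering was measured on 6 Affymetrix arrays. Of these, 3 arrays came from wild-type Zhonghua11, a japonica cultivar, and 3 from the mutant gif1, each array a biological replicate and none of them treated. The mutant is a single line defective in GIF1, a cell-wall invertase of the grain. The sources used here do not give its parent cultivar or the number of plants or grains behind an array. GIF1 itself read 564 ± 119 (SD, n = 3) in wild type and 155 ± 47.5 (SD, n = 3) in gif1. All differences are gif1 minus wild type on the scale log2(signal + 17.7), tested with limma across the whole array.

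Markers of the tissues of the caryopsis differed between genotypes, where 5.63% of all 15423 genes tested were lower in gif1 and 7.92% higher. Of 14 starchy endosperm markers listed, 10 had a probe set and 9 were tested, of which 8 were lower in gif1 and 0 higher (1 and 0 with quantile normalization, 1 and 1 with median centring or hybridization-control scaling). The 8 fell to 5 without gif1 replicate 1, to 4 without gif1 replicate 3, to 2 with no filter on signal and to 0 without limma's intensity trend. The tenth marker measured, the glutelin gene GLUB-4, was above background on 1 array of each genotype, and the other 9 on all arrays. The summed signal of the 10 ran from 562264 to 707653 in wild type, against 390895 to 445453 in gif1. The probe sets of GLUA-1, GLUA-2, RAG2 and WX, and that of RBCS in the next list, end in _x_at or _s_at. They can bind transcripts of related genes, so the markers are not independent readings. Of 12 green pericarp markers, 5 were measured and 4 were higher, with summed signals of 74776 to 79974 and of 93789 to 114891. The fifth, CAB2R, went the other way, from 44440 ± 1480 (SD, n = 3) in wild type to 37367 ± 2429 (SD, n = 3) in gif1. Its groups did not overlap, but the difference of -0.25 did not pass (SE 0.09, limma adjusted p = 0.106). Of 13 aleurone and embryo markers, 10 were measured, 5 lower and 1 higher, with sums of 109496 to 172548 and of 52038 to 54332. The 1 higher was the embryo meristem gene OSH1, which also stands among the flower and spikelet genes described last, and its call was lost when any of 5 single arrays was left out. The part of tissue make-up in the MADS-box results was not tested. In RNA from bulk grain tissue, fewer cells of a type and less RNA per cell cannot be told apart. The median signal of an array was 83.7 to 103.6 in wild type and 67.5 to 72.6 in gif1, and the hybridization controls differed by -0.51 and the poly-A controls by -2.24 on the log2 scale.

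Most of the 31 genes gave signal above background in the filling grain. Background was read from 64 probe sets for reporter genes that rice does not carry, and a gene counted as above it when it exceeded their 95th percentile on all 3 arrays of a genotype. That level ran from 84.97 to 148.51 in wild type and from 60.095 to 87.005 in gif1. In wild type 21 of 31 genes were above it, and in gif1 23 of 31. The share of all genes above it is not given here, so these counts show nothing particular to MADS-box genes. By another measure, a mean over the 6 arrays of at least 74.11, 23 of the 31 genes stood against 15423 of all 17905. The 21 were above the reporter level in both genotypes, and MADS34 and MADS47 joined them in gif1, where the level itself was lower. MADS47 was above it on 2 of 3 wild-type arrays, reading 166.2, 146.0 and 86.7. Its gif1 signals of 125.5, 196.7 and 171.2 overlapped these, so its count in gif1 alone is no sign of a gain. The other 8 genes, MADS20, MADS23, MADS25, MADS26, MADS30, MADS33, MADS50 and MADS57, counted as above the reporter level in neither genotype. Signals depend on the probes, so the level of one gene is not read as higher or lower than that of another.

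**Figure D1:**
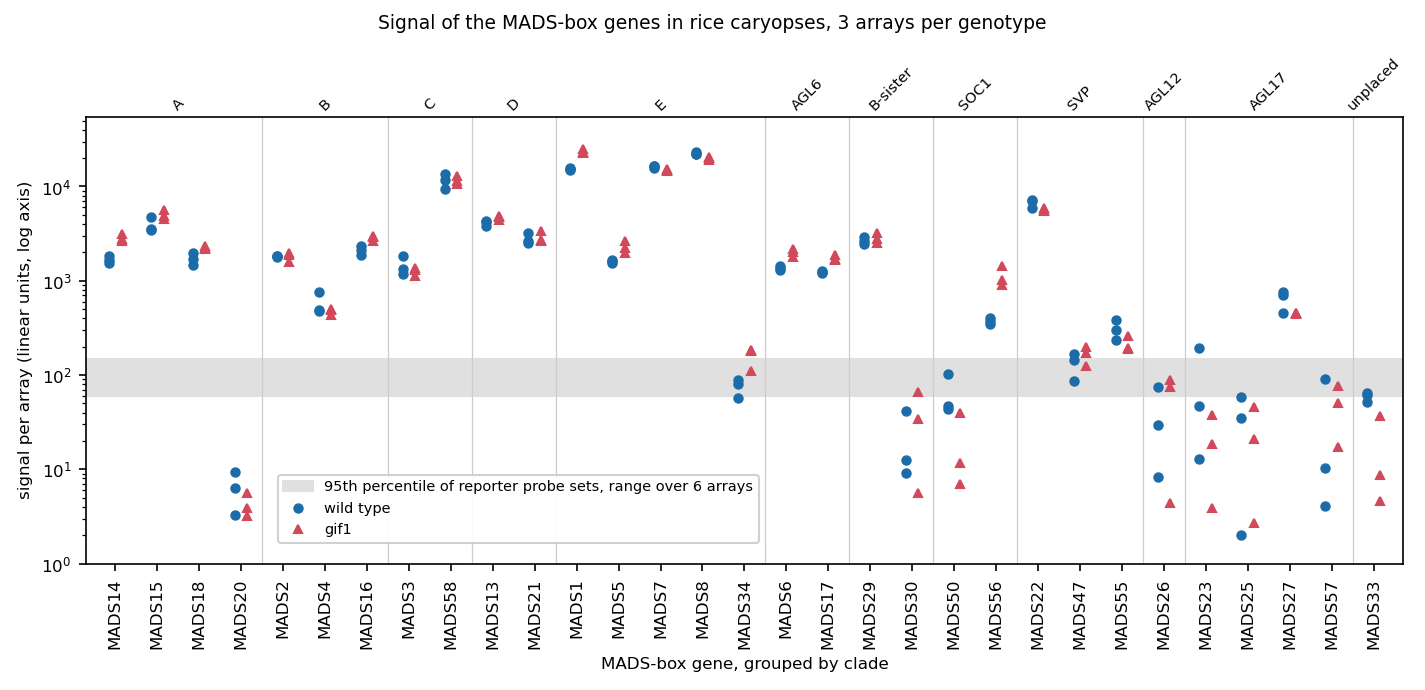
Signal of the 31 MADS-box genes on each array (log axis), with wild type as circles and gif1 as triangles and genes grouped by clade. The grey band is the range over the 6 arrays of the 95th percentile of the reporter probe sets, from 60.095 to 148.51, and the 21 genes counted as above background in both genotypes include all tested members of clades A, B, C, D and AGL6.

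Every measured clade of floral organ genes was represented among the genes above background. In clade E, the SEPALLATA-type cofactors, MADS8 (LOC4347517) read 21910.1, 23255.8 and 22138.2 in wild type. MADS7 (LOC4346134), like MADS8 a cofactor for the inner floral organs, read 16404.9, 15582.9 and 16297.6 there. MADS1 (LOC4332059), which specifies lemma and palea, read 15666.4, 15162.9 and 14875.1. All of these lay far above the reporter level. The class C gene MADS58 (LOC4338067), which acts in floral meristem determinacy, read 13604.9, 11636.9 and 9434.5, and MADS3 (LOC9271572), the other class C gene, read 1831.6, 1188.9 and 1340.1. Of the class D genes, the ovule identity gene MADS13 (LOC4351753) read 4344.3, 3850.9 and 4154.4 and MADS21 (LOC4324888) read 2545.4, 3181.6 and 2636.7. The wild-type arrays thus carried transcripts of each of the C, D and E clades in the grain.

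The genes with known seed roles were also on. MADS29 (LOC4328443) read 2947.2, 2648.8 and 2481.3 in wild type, while MADS30 (LOC4341786), the other B-sister member measured, read 9.2, 41.9 and 12.7 and stayed at background. MADS6 (LOC4330328) read 1450.1, 1292.5 and 1358.5, and its close relative MADS17 (LOC4336762) read 1241.1, 1214.4 and 1283.6. The class B genes MADS2 (LOC4325001), MADS4 (LOC4338842) and MADS16 (LOC4342047), which specify lodicules and stamens, had wild-type means of 1830 ± 22.5, 573 ± 160 and 2123 ± 234 (SD, n = 3). The SVP-type gene MADS22 (LOC4330805), a regulator of meristem identity, had a wild-type mean of 6751 ± 728 (SD, n = 3).

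The MADS-box genes that passed the test between genotypes were all higher in gif1: MADS56, MADS14, MADS1, MADS6, MADS5 and MADS17. A probe set was tested where its mean over the 6 arrays was at least 74.11, and 23 of the 31 genes were tested. Of these, 6 were higher in gif1 at an adjusted p under 0.05 and 0 were lower, while 17 did not pass. The 6 are 26.1% of the members tested. They became 3 (MADS56, MADS14 and MADS1) without wild-type replicate 2 or gif1 replicate 3, and 1 (MADS56) without limma's intensity trend. With the second-brightest probe set of the genes that have more than 1, 6 members again passed, MADS15 in place of MADS14. Over all 15423 genes tested with 1 probe set each, 7.92% were higher, 5.63% lower and 13.6% either way (over all probe sets tested, 5.98%, 6% and 12%). The count of 0 lower is by limma, and at an unadjusted p under 0.05 there were 10 members higher and 0 lower. The share of all tested genes at that unadjusted threshold is not given here, so the 10 cannot be set against a background. Groups without overlap were found for 12 of the 23, with gif1 above in 10 and below in 2. This is 52.2%, against 35.5% of all tested genes (20% above and 15.5% below). The median difference of the members was 0.17, against 0.03 for all tested genes, with 65.2% of members and 53.02% of all tested genes above 0.

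**Figure D2:**
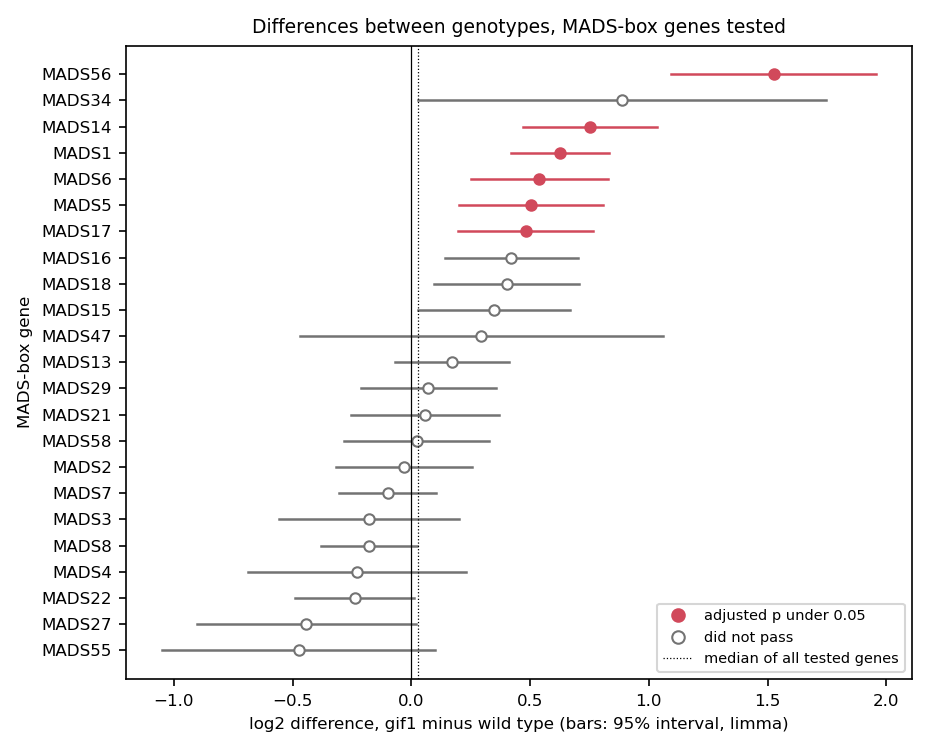
Log2 difference between gif1 and wild type for the 23 MADS-box genes tested, with 95% intervals from limma. Filled points are the 6 genes with an adjusted p under 0.05, all higher in gif1, and the dotted line is the median of all tested genes (0.03).

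MADS56 (LOC4349237) showed the largest difference of the members tested. It is a SOC1-type gene that delays flowering in long days. The wild-type arrays gave 400.1, 372.3 and 344.7 for it, and the gif1 arrays 1027.1, 1451.6 and 900.9. Each gif1 array was above each wild-type array, and the rise was 2.88-fold (log2 difference 1.53, SE 0.20, limma adjusted p = 0.000962). Its call held under all 16 alternative settings, which included leaving out each array. The other SOC1-type gene, MADS50 (LOC4331445), an activator of flowering, gave 103.0, 47.5 and 43.1 on wild-type arrays against 39.3, 11.8 and 7.0 for gif1. It lay at background in both genotypes and was not tested.

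The A clade, whose members act in the floral transition and in meristem identity, held the next called gene. MADS14 (LOC4334140) gave 1668.7, 1843.6 and 1535.1 on wild-type arrays against 2801.1, 3095.9 and 2637.6 for gif1. The groups did not overlap and MADS14 rose by 0.75 (SE 0.13, limma adjusted p = 0.00439, and 0.0545 without the intensity trend). Its further probe sets differed by 0.24 (SE 0.13, limma adjusted p = 0.243), 0.62 (SE 0.15, limma adjusted p = 0.0248) and -0.41 (SE 0.37, limma adjusted p = 0.499), the last near background. MADS15 (LOC4342214), the closest relative of MADS14, gave 3483.9, 3562.6 and 4766.7 on wild-type arrays against 4484.4, 5678.4 and 4807.6 for gif1, so that the groups overlapped. With this brightest probe set MADS15 did not pass (0.35, SE 0.15, limma adjusted p = 0.144), though it did without wild-type replicate 3 (0.49, limma adjusted p = 0.0429). It also passed with median centring (0.68, limma adjusted p = 0.00892) and with hybridization-control scaling (0.86, adjusted p = 0.000705).

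The probe sets of MADS15 did not all say the same. The next 2 by brightness passed as higher, with means of 3319 ± 134 and 1406 ± 81.3 (SD, n = 3) in wild type and 5291 ± 703 and 2336 ± 165 (SD, n = 3) in gif1. Their differences were 0.66 (SE 0.12, limma adjusted p = 0.00649) and 0.72 (SE 0.13, limma adjusted p = 0.00482). The identifiers of both end in _x_at or _s_at, and so does that of the second probe set of MADS14, which means that they can bind transcripts of related genes. The fourth MADS15 probe set was near background (0.37, SE 0.74). MADS18 (LOC4343851) gave 1711.3, 1986.6 and 1470.2 on wild-type arrays against 2251.6, 2347.0 and 2197.1 for gif1. Its groups did not overlap, but it did not pass (0.40, SE 0.14, limma adjusted p = 0.0832, 95% interval 0.10 to 0.71). MADS18 did pass with median centring (0.74, limma adjusted p = 0.00963) and with hybridization-control scaling (0.91, adjusted p = 0.00103). MADS20 (LOC4352275) stayed at background, with signals of at most 9.3.

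**Figure D3:**
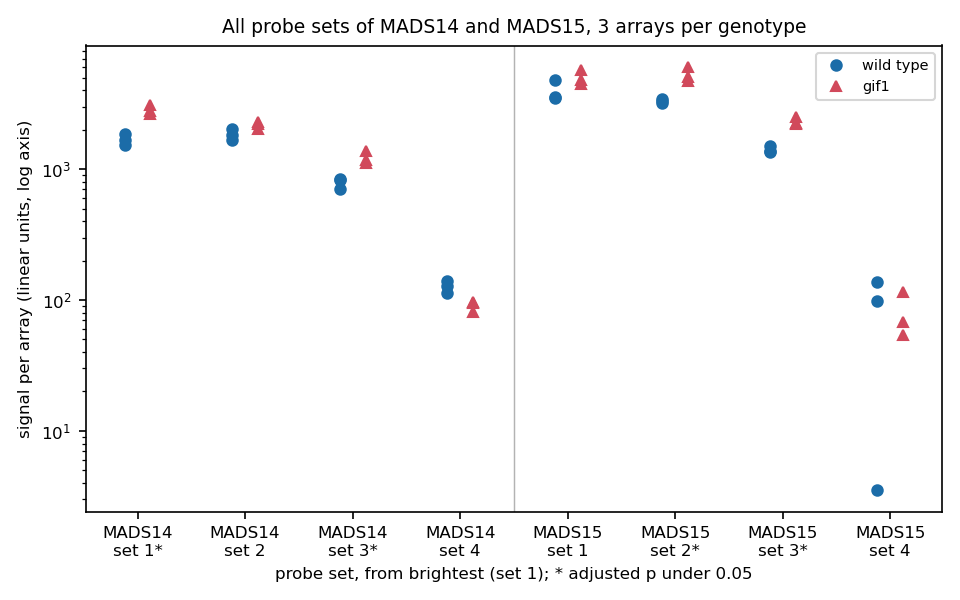
Signal of every probe set of MADS14 and MADS15 on each array (log axis), ordered from the brightest, with wild type as circles and gif1 as triangles. Sets marked with an asterisk had an adjusted p under 0.05: sets 1 and 3 of MADS14 and sets 2 and 3 of MADS15, all higher in gif1.

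In the E clade MADS1 and MADS5 rose, while MADS7, MADS8 and MADS34 did not pass. MADS1 read 24680.4, 22458.2 and 23478.2 in gif1, all above its wild-type signals given above, and rose by 0.63 (SE 0.09, limma adjusted p = 0.00211, and 0.0598 without the intensity trend). MADS5 (LOC4340218), a spikelet cofactor closest to MADS1, gave 1647.9, 1531.0 and 1611.0 on wild-type arrays against 2639.4, 1976.4 and 2252.9 for gif1. It rose by 0.51 (SE 0.14, limma adjusted p = 0.0364). That call was lost without wild-type replicate 2 (0.48, limma adjusted p = 0.0920) or 3 (0.51, adjusted p = 0.0641) and without gif1 replicate 1 (0.40, adjusted p = 0.154) or 3 (0.51, adjusted p = 0.110). MADS7 read 15508.9, 14586.0 and 14989.2 in gif1 and MADS8 read 19168.1, 20440.1 and 19855.7. For both, every gif1 array lay below every wild-type array, yet neither passed. The differences were -0.10 for MADS7 (95% interval -0.30 to 0.11, limma adjusted p = 0.523) and -0.18 for MADS8 (95% interval -0.38 to 0.02, limma adjusted p = 0.232).

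Ratios within an array, which do not move when a whole array is multiplied by a factor, are given here as a description. The pairs were chosen after the values were seen, mostly as a called gene over one not called, so that a shift in their ratio follows from the choice. Only the change of a ratio between arrays can be read, not its level. The signal of MADS1 over that of MADS8 was 0.715, 0.652 and 0.672 in wild type, against 1.288, 1.099 and 1.182 in gif1, 1.75-fold higher in gif1. MADS1 over MADS7 was 1.65-fold higher, MADS5 over MADS8 1.61-fold and MADS5 over MADS7 1.53-fold, with no overlap between genotypes for any of these pairs. MADS7 over MADS8 was 0.718 ± 0.0423 (SD, n = 3) in wild type and 0.759 ± 0.0479 (SD, n = 3) in gif1, and those groups overlapped.

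MADS34 (LOC4334141), an E-clade gene of panicle and sterile lemma development, was dim. It read 79.5, 57.2 and 89.6 in wild type, at background, and 177.7, 182.2 and 109.1 in gif1, above it. The groups did not overlap, but the difference of 0.89 did not pass (SE 0.39, limma adjusted p = 0.163, 95% interval 0.03 to 1.75). It did pass with median centring (1.22, limma adjusted p = 0.0436) and with hybridization-control scaling (1.32, adjusted p = 0.0216). MADS34 lies next to MADS14 on chromosome 3 in the RefSeq gene order, with no gene listed between them. The only other such pair, MADS13 and MADS33 (LOC4351752) on chromosome 12, held 1 gene far above background and 1 at background, with signals from 51.2 to 63.9 in wild type and from 4.6 to 36.7 in gif1.

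Both AGL6-type genes rose. MADS6, which acts in floral organs and endosperm, read 1802.7, 2171.2 and 2022.9 in gif1, above its wild-type arrays, a rise of 0.54 (SE 0.13, limma adjusted p = 0.0236). MADS17 read 1647.7, 1889.2 and 1712.4 in gif1, a rise of 0.48 (SE 0.13, limma adjusted p = 0.0342). The ratio of MADS6 to MADS17 within an array overlapped between genotypes, at 1.10 ± 0.0619 (SD, n = 3) and 1.14 ± 0.0441 (SD, n = 3). MADS6 lost its call without wild-type replicate 2 (0.50, limma adjusted p = 0.0663) or gif1 replicate 2 (0.48, adjusted p = 0.103) or 3 (0.53, adjusted p = 0.0908). MADS17 lost its call without wild-type replicate 2 (0.46, limma adjusted p = 0.0793) or 3 (0.50, adjusted p = 0.0544), and without gif1 replicate 1 (0.52, adjusted p = 0.0794), 2 (0.43, adjusted p = 0.135) or 3 (0.50, adjusted p = 0.103).

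MADS29, the nucellus gene, did not pass with the deposited scaling. It read 3174.6, 2535.6 and 2795.3 in gif1, and the groups overlapped. The difference was 0.07 (SE 0.13, limma adjusted p = 0.760), with a 95% interval from -0.21 to 0.36. It was 0.41 with median centring (limma adjusted p = 0.0833). With hybridization-control scaling it was 0.58 (adjusted p = 0.0178), so that MADS29 passed as higher there. The ratio of MADS6 to MADS29 was 0.492, 0.488 and 0.548 for wild type, against 0.568, 0.856 and 0.724 for gif1, 1.39-fold higher without overlap, for a pair chosen in the same way.

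**Figure D4:**
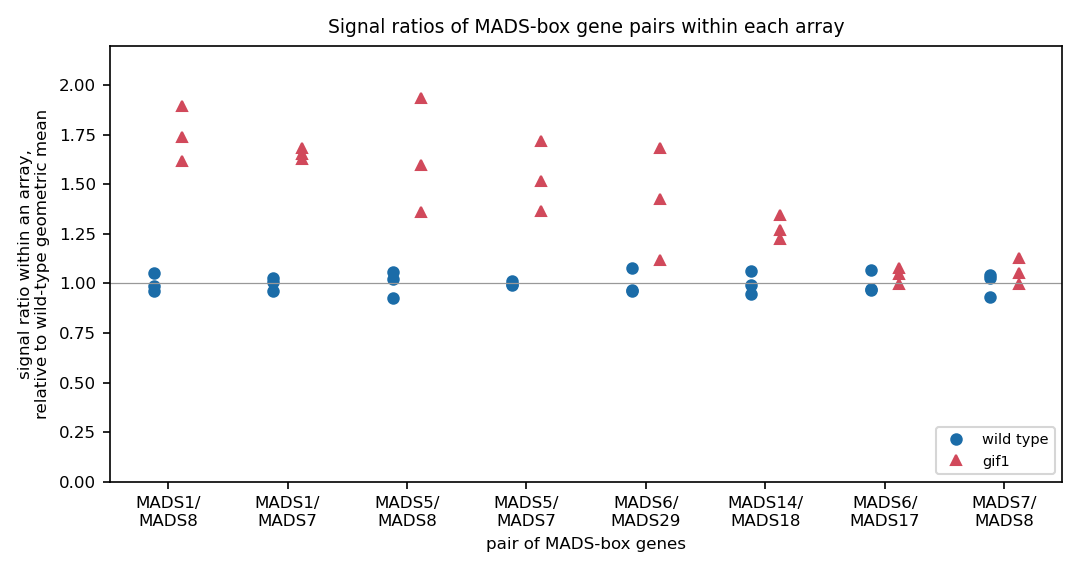
Signal ratios of 8 pairs of MADS-box genes within each array, divided by the geometric mean of the wild-type arrays, with wild type as circles and gif1 as triangles. The ratios of MADS1 or MADS5 to MADS7 or MADS8 lie higher on every gif1 array, by 1.53-fold to 1.75-fold on average. MADS6/MADS29 and MADS14/MADS18 also lie higher without overlap, while MADS6/MADS17 and MADS7/MADS8 overlap. The pairs were chosen after the values were seen, mostly as a called gene over one not called, so that a shift follows from the choice.

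With the deposited scaling, 0 of the 7 genes of clades B, C and D passed by limma's adjusted p and 1, MADS16, at an unadjusted p under 0.05. With 13.6% of all tested genes passing, 0 of 7 says nothing particular of these clades. The nearest was MADS16, the AP3-type gene of lodicules and stamens, which gave 2358.1, 1889.2 and 2122.8 on wild-type arrays against 2986.9, 2887.4 and 2648.7 for gif1. Its groups did not overlap and it differed by 0.42 (SE 0.13, limma adjusted p = 0.0547), passing without wild-type replicate 1 (0.50, limma adjusted p = 0.0255). It also passed with a stricter filter on signal (limma adjusted p = 0.0452) and with limma's array weights (0.45, adjusted p = 0.0356). The PI-type genes of the same clade stood at -0.03 for MADS2 (95% interval -0.32 to 0.25) and at -0.23 for MADS4 (95% interval -0.69 to 0.23), and their difference from MADS16 was not tested. In clade C the differences were 0.02 for MADS58 (95% interval -0.28 to 0.33) and -0.18 for MADS3 (95% interval -0.56 to 0.20). In clade D they were 0.17 for MADS13 (95% interval -0.07 to 0.41) and 0.06 for MADS21 (95% interval -0.25 to 0.37). MADS13 alone of these 4 had groups that did not overlap, with 4389.5, 4695.3 and 4820.1 in gif1. With median centring MADS16 (limma adjusted p = 0.00324) and MADS13 (adjusted p = 0.0164) passed as higher. With hybridization-control scaling so did MADS16, MADS13, MADS2 (adjusted p = 0.0332), MADS58 (0.0273) and MADS21 (0.0216). Of all probe sets called, 90.47% and 95.35% were higher under these scalings. MADS3 and MADS4 passed under neither.

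The vegetative and flowering-time clades apart from MADS56 gave no call. MADS22, whose probe set ends in _s_at, differed by -0.24 (95% interval -0.49 to 0.01, limma adjusted p = 0.198). Of the SVP-type genes that restrain brassinosteroid responses, MADS47 (LOC4331872) differed by 0.29 (SE 0.35) and MADS55 (LOC4340495) by -0.47 (SE 0.26), neither passing. In the AGL17 clade, known mostly from roots, MADS27 (LOC4329771) was above background at 706.7, 451.7 and 752.6 for wild type, against 458.4, 456.0 and 446.2 for gif1. Its groups overlapped through wild-type replicate 2, and the difference was -0.44 (SE 0.21, limma adjusted p = 0.195), with -0.14 (SE 0.31) in its other probe set. MADS23, MADS25, MADS57 and the AGL12-type gene MADS26 lay at background. Across the 8 untested genes single signals ran from 2.0 to 192.2, and with no filter on signal 0 of the 8 passed (lowest limma adjusted p = 0.281, 1 at an unadjusted p under 0.05).

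The way the arrays were scaled moved these differences together. Centring each array on its median moved the median of all tested probe sets from -0.06 to 0.28, and scaling to the hybridization controls moved it to 0.43. The members' median moved with it, from 0.17 to 0.51 and 0.68. Of the 23 members, 11 and 16 then passed as higher, with 0 lower. Of all 28597 probe sets tested, 5817 and 9777 then passed as higher, against 1709 with the deposited scaling. The rise in the count of members is thus not particular to them. All 6 called genes stayed above 0 and past the threshold under both of these scalings. Quantile normalization left 4 of them called, ending the calls of MADS5 (0.45, limma adjusted p = 0.0596) and MADS17 (0.43, adjusted p = 0.0591). MADS7 and MADS8 changed sign with the scaling, from values below 0 to 0.24 and 0.16 with median centring and to 0.41 and 0.33 with the hybridization controls, so no direction is given for them. MADS2, MADS3, MADS4 and MADS22 also turned above 0 under both, none passing except MADS2 with hybridization-control scaling (0.47, adjusted p = 0.0332), as did MADS7 there (adjusted p = 0.0280).

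**Figure D5:**
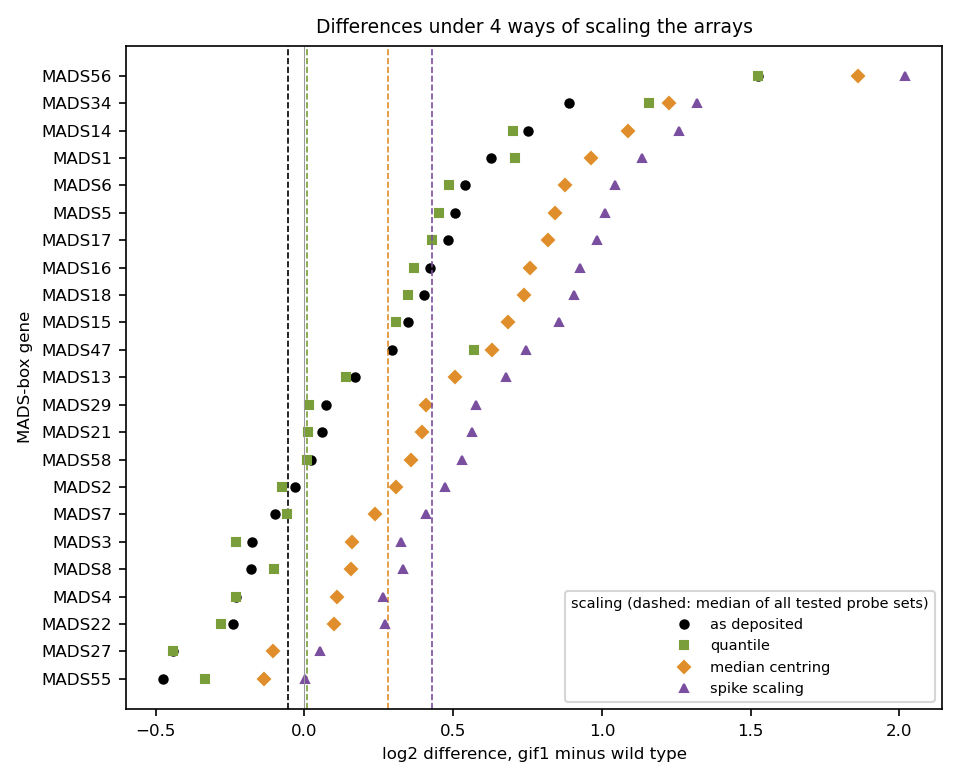
Log2 difference of each tested MADS-box gene under the deposited scaling, quantile normalization, median centring and scaling to the hybridization controls (spikes). Dashed lines are the medians of all tested probe sets under each (-0.06, 0.01, 0.28 and 0.43), and the 6 called genes lie to the right of the line of their own scaling in every case.

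Some other regulators of flower and spikelet identity were also higher in gif1. The list of 30 names, chosen with earlier results known, included GIF1, the mutated gene, which is left out of the counts here. Of the other 29 names, 14 genes outside the family were measured and 9 tested, of which 4 were higher and 0 lower, against 7.92% and 5.63% of all tested genes (2 were lower, HD1 and YAB1, at an unadjusted p under 0.05). Without limma's intensity trend 0 of them passed (adjusted p = 0.0530 for IDS1, 0.0865 for YAB2, 0.106 for YAB6 and 0.133 for OSH1). The AP2-type spikelet gene IDS1 went from 5846 ± 548 (SD, n = 3) to 10194 ± 1029 (SD, n = 3), a difference of 0.80 (SE 0.12, limma adjusted p = 0.00186). The YABBY genes YAB2 (0.52, SE 0.11) and YAB6 (0.47, SE 0.10) and the meristem homeobox gene OSH1 (0.93, SE 0.26) were higher too. Without gif1 replicate 1 the calls of YAB2 (0.46, limma adjusted p = 0.0615) and YAB6 (0.44, adjusted p = 0.0693) were lost, and so was that of YAB6 without gif1 replicate 3 (0.48, adjusted p = 0.0560). The call of OSH1 ended when any array other than wild-type replicate 1 was left out. It was at 0.62 (adjusted p = 0.0783) without wild-type replicate 3, with adjusted p up to 0.141 in the others. The florigen gene HD3A, whose product acts upstream of MADS14 and MADS15 in the shoot apex, differed by 0.08 (SE 0.22) and did not pass (0.58 and adjusted p = 0.0414 with hybridization-control scaling), nor did the carpel gene DL (0.38, SE 0.31), HD1 (-0.91, SE 0.38) or YAB1 (-0.30, SE 0.09).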

How the data were processed

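Biotin-labelled RNA from 6 caryopsis samples was hybridized to Affymetrix rice arrays, 3 per genotype. The deposited values are linear intensity signals per probe set. Per the submitters' processing notes they come from GCOS 1.4, whose settings the sources used here do not give. The trimmed mean of each array was about 500, as read from the deposited values. Of 57381 probe sets, 187 controls were left out. An offset of 17.7, the 25th percentile of all values, was added before log2. The test, on 28597 probe sets with a mean of at least 74.11, was limma 3.58.1 under R 4.3.3 (lmFit, eBayes with intensity trend, Benjamini-Hochberg over all tested probe sets, threshold 0.05). For arrays, their number limits the precision.

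Genes were named through the platform annotation and the RefSeq gene table (ASM3414082v1), used for names and gene order only. Clades follow general knowledge of the family. The members and lists were chosen with earlier results of these data known. The naming rule took the members past the threshold, the 10 with the highest wild-type mean and those of flower or grain clades above background. All others are also named, mostly by count or range. The replicate numbers were not used as pairs, since deviations of same-numbered arrays correlated at -0.03, 0.02 and -0.05. The fit was tested on simulated data, whose outcome is not given here and is not used for any call. Alternatives covered scaling, offset, filter, variance model, probe set and single arrays. The planned look at promoter and protein sequence was not run. Figures used Python 3.11.15 and matplotlib 3.10.9.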

Additional observations from a re-analysis of the deposited data

How the results depend on the processing

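Of 374 values of 23 members under 16 alternative settings and other probe sets, 312 kept direction and side of the threshold. Without a change of sign, 21 lost a call and 19 gained one, and 22 values, in 12 members, changed sign. Among the 22, MADS2 and MADS7 with spike scaling also gained a call. Only 1 of the 22 belonged to a called gene, the fourth MADS14 probe set (-0.41, chosen after seeing the data), which did not pass. The rest, none called as reported, were MADS2 (0.31), MADS4 (0.11), MADS3 (0.16), MADS7 (0.24), MADS8 (0.16) and MADS22 (0.10) with median centring, and MADS2 (0.47), MADS4 (0.26), MADS3 (0.33), MADS7 (0.41), MADS8 (0.33), MADS22 (0.27), MADS55 (0.000400) and MADS27 (0.0515) with spike scaling. Without a single array, MADS2 ran from -0.0900 to 0.0567, MADS3 from -0.31 to 0.000536, MADS58 from -0.12 to 0.15, MADS21 from -0.0581 to 0.16 and MADS29 from -0.0125 to 0.15. The members passing as higher, 6 as reported, numbered 11 with median centring, 16 with spike scaling and 1 (MADS56) without the intensity trend, and 3 to 7 without a single array (3 without wild-type replicate 2 or gif1 replicate 3, MADS5, MADS6 and MADS17 losing their calls), with 0 lower throughout. Over all probe sets, 1709 were higher and 1716 lower as reported. There were 5817 and 613 with median centring, 9777 and 477 with spike scaling, 368 and 416 without the trend, 1122 lower with no filter, and 727 to 2289 higher and 709 to 2005 lower without a single array. The cause of these changes was not tested. With the replicate block, MADS17 lost its call (0.48, limma adjusted p = 0.0637) and 5 members passed. All pairs of same-numbered arrays correlated under 0.1, which with so few arrays cannot exclude a pairing, and the labels do not state one. The block gave 1436 higher and 1394 lower probe sets. The counts above background were 21 or 22 in wild type and 23 in gif1 under all 4 alternatives. Signals near the reporter level limit what can be said of the 8 untested genes.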
